A study of Mus musculus with 8 samples.

Results

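The genes described here are 10 that encode enzymes of extracellular nucleotide breakdown: Enpp1, Enpp2, Enpp3, Enpp4, Enpp5, Entpd1, Entpd2, Entpd5, Nt5e and Alpl. They were picked by gene name from a table of estimated read counts of 48440 genes, and all 10 are in it. The table covers 8 libraries of polyadenylated RNA from embryonic stem cells of mice with the strain background 129/Ola, grown without feeder cells on gelatin in medium with serum. A parental line with intact β-catenin (CTNNB1+/+) and a β-catenin knock-out line (CTNNB1-/-) each received 3 μM CHIR99021, an inhibitor of the kinase Gsk3, or its vehicle DMSO at 0.3 μl/ml for 72 hours. Each of the 4 groups has 2 libraries. The labels do not say whether the 2 libraries of a group came from separate cultures, nor how many clones the knock-out line stands for, so a p-value covers no more than the spread seen within these pairs. The choice of genes was made knowing that Nt5e was much higher and Enpp3 much lower in parental cells with CHIR99021. For the 10 genes, that contrast, the comparison of the lines in CHIR99021 and the difference between the 2 responses are therefore given as a description without p-values, as is the comparison of the lines in DMSO for Nt5e and Enpp3.

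Cells release ATP and other nucleotides, and enzymes on their surface take the phosphates off step by step. The ENPP family (ectonucleotide pyrophosphatases and phosphodiesterases) can split ATP into AMP and pyrophosphate, and the ENTPD family removes the outer phosphates one at a time to give ADP and AMP. CD73, the product of Nt5e, turns AMP into adenosine, which acts on receptors of its own. Tissue-nonspecific alkaline phosphatase, the product of Alpl, can carry out several of these steps and also hydrolyses pyrophosphate. Its activity is a classical stain for mouse pluripotent cells. The products of Enpp2 and Entpd5 are not surface nucleotidases in the strict sense. Enpp2 encodes autotaxin, a secreted enzyme that makes the signalling lipid lysophosphatidic acid, and the ENTPD5 enzyme works in the endoplasmic reticulum.

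The libraries hold 23650572 to 27680649 estimated counts each, so 10 counts in a library correspond to 0.355 to 0.429 CPM (counts-per-million of the library). Ctnnb1, the knocked-out gene, averaged 897 and 828 CPM in parental cells with DMSO and CHIR99021, and 9.35 and 9.06 CPM in the knock-out cells. Axin2, a target of β-catenin signalling, averaged 4.28 CPM in parental cells with DMSO and 42.0 CPM with CHIR99021, against 5.01 and 2.85 CPM in the knock-out line. The 9 embryonic stem cell markers summed to between 5352 and 6025 CPM in every library.

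Of the 10 genes, 9 had enough counts to be tested. Enpp2 did not. It was read 0 to 3 times per library, at most 0.116 CPM, and in the 3 libraries where it was at 0 that count allows up to 0.107 to 0.124 CPM (3 counts, counting error only). Entpd1 passed only through the knock-out libraries with CHIR99021, the one group in which both libraries exceeded the 0.389 CPM that the filter requires. The other 8 passed in all 4 groups.

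Per kilobase of transcript, Alpl outweighed the other genes together in each group. Its mean level was 46.4 CPM per kb in parental cells with DMSO and 81.6 with CHIR99021, and in knock-out cells 50.9 with DMSO and 49.4 with CHIR99021. That was 81.1%, 87.3%, 81.8% and 82.3% of the summed level per kb of the 10 genes in those groups. In parental cells with DMSO a middle tier followed, made of Enpp4 at 3.01, Enpp5 at 2.56, Enpp3 at 2.39 and Entpd5 at 1.91 CPM per kb. Below it lay Entpd2 at 0.491, Nt5e at 0.307, Enpp1 at 0.0839, Entpd1 at 0.0353 and Enpp2 at 0.00694 CPM per kb. In parental cells with CHIR99021 Nt5e stood 2nd of the 10 at 3.66 CPM per kb, Enpp4 4th at 2.48 and Enpp3 7th at 0.192, while in knock-out cells with CHIR99021 Nt5e was 7th at 0.286 and Enpp3 5th at 2.02.

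**Figure D1:**
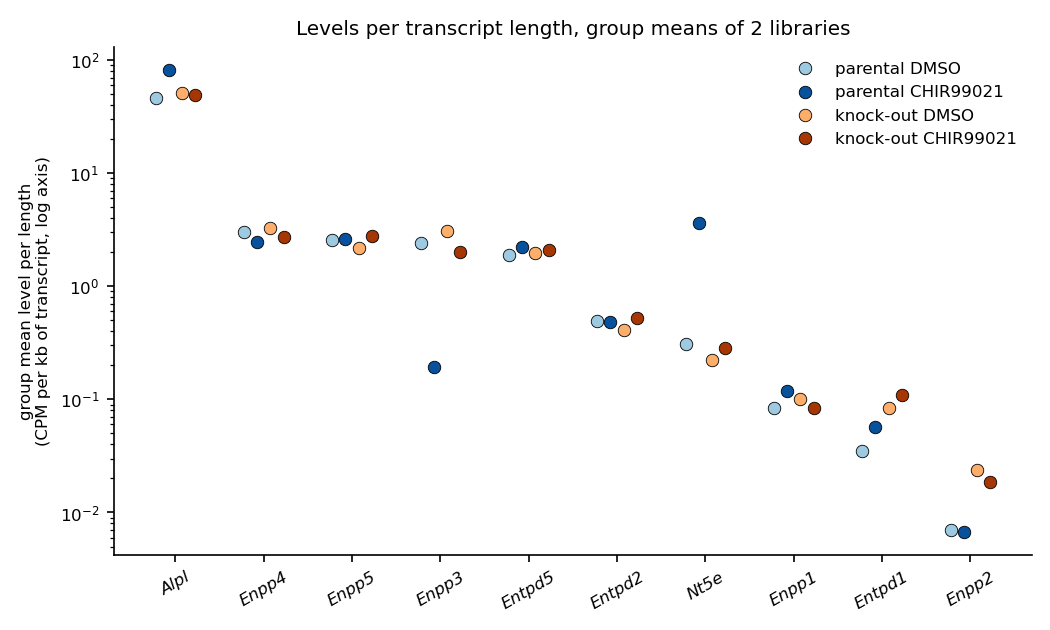
Mean level of each gene over the 2 libraries of a group, in CPM per kilobase of its longest coding transcript, on a log axis; each point is 1 group mean. Alpl lies far above the others in all 4 groups, and the parental CHIR99021 group leaves its neighbours for Nt5e (3.66) and Enpp3 (0.192).

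Nt5e (ENSMUSG00000032420, plus strand, chr9:88327197-88372092, GRCm38) encodes CD73, the enzyme that makes adenosine from AMP. In parental cells its level was 1.37 and 1.08 CPM in the 2 DMSO libraries and 14.5 and 14.8 CPM in the 2 CHIR99021 libraries. In knock-out cells it was 0.834 and 0.954 CPM with DMSO and 1.24 and 1.04 CPM with CHIR99021. The parental CHIR99021 libraries therefore stood alone far above every other library, and the parental DMSO and knock-out CHIR99021 libraries overlapped. The knock-out DMSO libraries were the lowest. In parental cells the fitted difference with CHIR99021 was a log2 fold change of 3.57 ± 0.16 (SE), 11.9-fold, the 44th highest of 17739 tested genes. In knock-out cells, whose libraries do not enter that contrast, the log2 fold change with CHIR99021 was 0.36 ± 0.22. It did not pass the test (edgeR's quasi-likelihood test, Benjamini-Hochberg adjusted p = 0.446), and its 95% interval was -0.12 to 0.84. The response in the knock-out line minus that in the parental line was -3.22 ± 0.28. Set against parental cells, knock-out cells had a log2 fold change of -0.45 ± 0.22 in DMSO and -3.67 ± 0.16 in CHIR99021.

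Enpp3 (ENSMUSG00000019989, minus strand, chr10:24772406-24842823, GRCm38) encodes a membrane enzyme that hydrolyses ATP and other nucleotides and is known as CD203c on basophils. Its level in parental cells was 9.62 and 10.7 CPM with DMSO and 0.843 and 0.794 CPM with CHIR99021, from 224 and 258 counts down to 22 and 19. In knock-out cells it was 13.1 and 13 CPM with DMSO and 8.67 and 8.50 CPM with CHIR99021. No groups overlapped: the order was knock-out with DMSO, parental with DMSO, knock-out with CHIR99021, and then parental with CHIR99021 far below. The parental difference with CHIR99021 was a log2 fold change of -3.62 ± 0.14, 12.3-fold lower and the 27th lowest of the 17739 genes. Enpp3 also fell in the cells without β-catenin. There its log2 fold change was -0.61 ± 0.09, 65.7% of the DMSO level by group means, with both CHIR99021 libraries below both DMSO libraries (edgeR's quasi-likelihood test, adjusted p = 0.00407). The adjusted p ran from 3.32e-05 to 0.0454 over 15 alternative settings, and the fold change from -0.622 to -0.591. The knock-out response minus the parental one was 3.02 ± 0.18. In DMSO, knock-out cells exceeded parental cells by 0.36 ± 0.09, a difference that lost its call in 12 of 15 alternative settings, among them each in which a library was left out. In CHIR99021 they exceeded them by 3.38 ± 0.14.

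Alpl (ENSMUSG00000028766, minus strand, chr4:137741733-137796384, GRCm38) was measured most deeply, with 29505 counts over the 8 libraries. Its level in parental cells was 116 and 118 CPM with DMSO and 208 and 203 CPM with CHIR99021. In knock-out cells it was 133 and 124 CPM with DMSO and 129 and 120.1 CPM with CHIR99021. As for Nt5e, the parental CHIR99021 libraries stood apart above all others, whereas the 2 knock-out groups overlapped and the parental DMSO libraries lay just below them. The parental log2 fold change with CHIR99021 was 0.81 ± 0.05, 1.76-fold. In knock-out cells it was -0.04 ± 0.05 (edgeR's quasi-likelihood test, adjusted p = 0.668), with a 95% interval of -0.15 to 0.07, so that any rise there above 1.05-fold falls outside the interval. The knock-out response minus the parental one was -0.86 ± 0.07. Knock-out cells differed from parental cells by 0.13 ± 0.05 in DMSO (edgeR's quasi-likelihood test, adjusted p = 0.144) and by -0.72 ± 0.05 in CHIR99021.

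**Figure D2:**
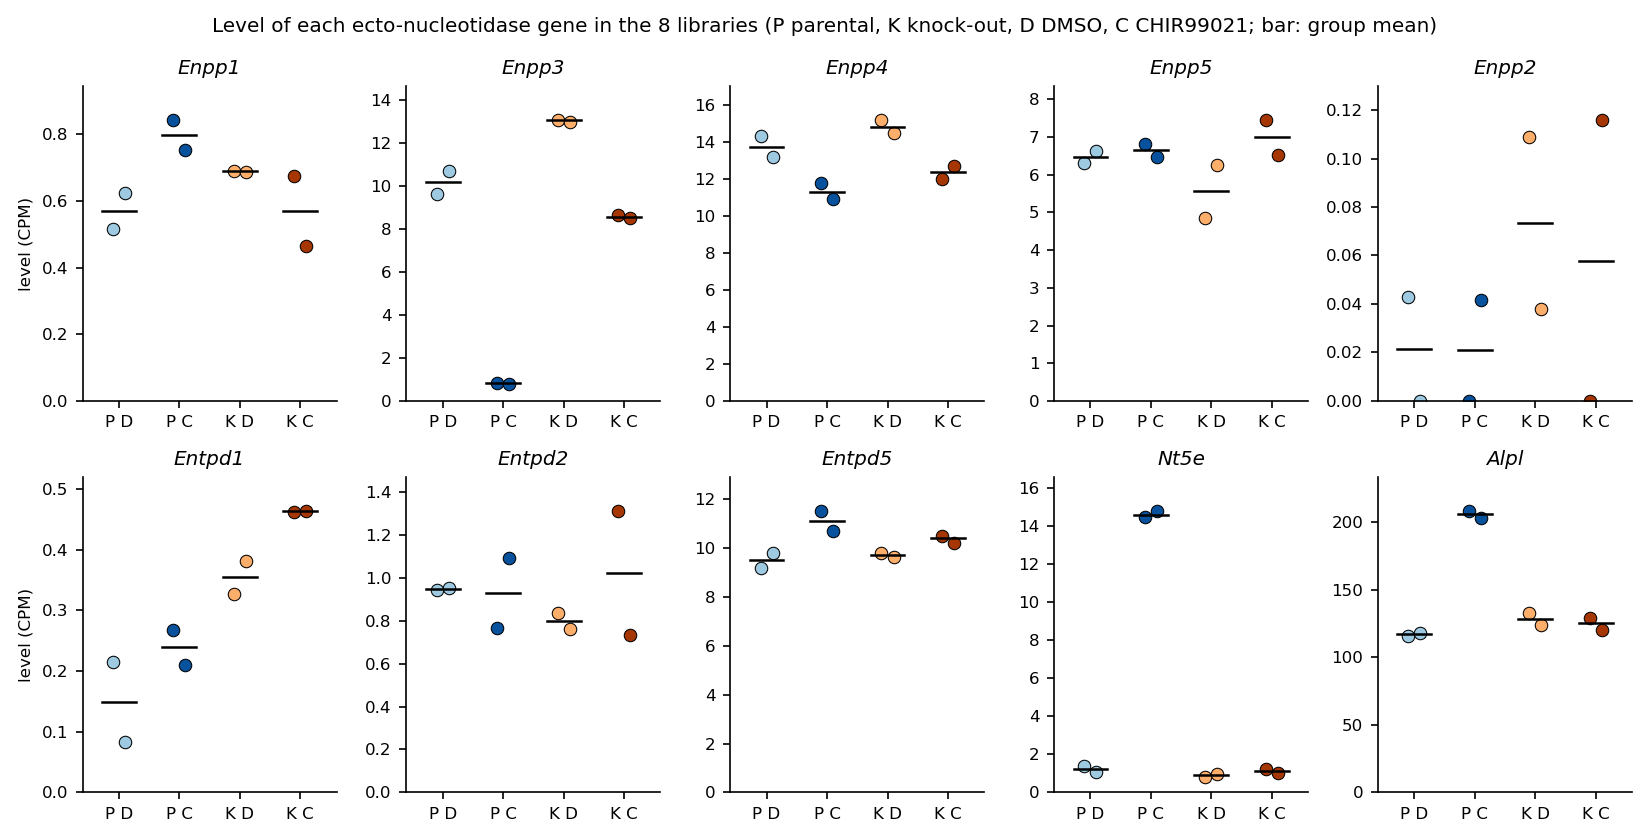
Level of each of the 10 genes in CPM, 1 panel per gene with its own axis from 0; each point is 1 of 8 libraries and each bar a group mean of 2. The parental CHIR99021 libraries are the highest for Nt5e (14.5 and 14.8 CPM) and Alpl (208 and 203 CPM) and the lowest for Enpp3 (0.843 and 0.794 CPM).

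Promoter windows of RefSeq (build GRCm38.p6, 250 bases before to 50 after a start) were found for 8 of the 10 genes, 10 windows in all, and none for Enpp2 and Enpp5. They are shown because β-catenin acts through TCF and LEF proteins, and the members with the clearest differences can be read against the letters these proteins are known to bind. The search on both strands was for CTTTGAA and CTTTGAT, for CTTTGTA and CTTTGTT, and for their shared 5-letter core CTTTG, which every 7-letter match contains. A 7-letter match was present in 1 of the 10 windows, that of Entpd5, against 16.9% of all 32851 windows of that length. The core was present in 6 of the 10, against 53.9% of all. The Nt5e window (chr9:88327359-88327658) holds no core, has 71.0% G and C, and lies wholly within an annotated exon, so its letters are not printed. Of the 2 windows of Alpl and the single window of Enpp3, the stretches outside annotated exons follow, read 5′ to 3′ on the minus strand with each core in capitals on either strand. The first Alpl stretch is chr4:137796385-137796634 (68.4% G and C), directly upstream of the gene:
Alpl, outer start: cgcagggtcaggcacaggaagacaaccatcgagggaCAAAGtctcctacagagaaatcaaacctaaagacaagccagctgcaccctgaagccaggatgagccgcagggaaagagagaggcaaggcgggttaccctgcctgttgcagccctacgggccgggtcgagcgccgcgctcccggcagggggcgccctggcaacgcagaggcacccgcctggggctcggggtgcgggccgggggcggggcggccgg
The second Alpl stretch is chr4:137766476-137766725 (56.0% G and C), upstream of a start inside the gene:
Alpl, inner start: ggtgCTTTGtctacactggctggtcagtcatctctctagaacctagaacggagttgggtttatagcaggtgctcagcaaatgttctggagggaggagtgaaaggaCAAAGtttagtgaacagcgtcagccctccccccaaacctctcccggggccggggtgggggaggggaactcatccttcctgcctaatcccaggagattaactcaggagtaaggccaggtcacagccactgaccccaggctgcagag
The Enpp3 stretch is chr10:24836226-24836445 (35.9% G and C), also upstream of a start inside the gene as GENCODE draws it:
Enpp3: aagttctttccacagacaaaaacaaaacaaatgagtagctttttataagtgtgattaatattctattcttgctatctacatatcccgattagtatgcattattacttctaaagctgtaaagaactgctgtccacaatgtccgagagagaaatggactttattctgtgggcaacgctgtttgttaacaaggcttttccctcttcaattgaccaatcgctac
The Alpl stretches hold 1 and 2 cores and the Enpp3 stretch none. A match is a match of letters and not a measured binding site, and the window of Enpp3 had the lowest share of G and C of the 10, at 40.7% over its full 300 bases. The table of counts sums the transcripts of a gene, so it does not show from which start they came.

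Among the other tested ENPP genes, Enpp4 and Enpp5 differed little between the groups, while Enpp1 was read too few times to tell. Enpp4 (chr17:44096308-44105809, minus strand, GRCm38) encodes a membrane enzyme that splits dinucleoside polyphosphates. Its level was 14.3 and 13.2 CPM in parental cells with DMSO and 11.8 and 10.9 CPM with CHIR99021, and in knock-out cells 15.2 and 14.5 CPM with DMSO and 12 and 12.7 CPM with CHIR99021. The CHIR99021 libraries of each line were thus below its DMSO libraries, and the groups did not overlap. The log2 fold changes with CHIR99021 were of like size, -0.28 ± 0.09 in parental cells, a call lost in 11 of 15 alternative settings, and -0.26 ± 0.08 in knock-out cells, which did not pass (edgeR's quasi-likelihood test, adjusted p = 0.085). The difference between these responses was 0.02 ± 0.12, with a 95% interval of -0.25 to 0.28. Enpp4 is the member whose CHIR99021 response was nearest to equal in the 2 lines, but that interval leaves room for responses differing by 1.21-fold.

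Enpp5 (chr17:44078813-44086567, plus strand, GRCm38), a related membrane enzyme, lay between 4.86 and 7.46 CPM in the 8 libraries. Its levels were 6.31 and 6.64 CPM in parental cells with DMSO, 6.82 and 6.48 CPM with CHIR99021, and in knock-out cells 4.86 and 6.26 CPM with DMSO and 7.46 and 6.53 CPM with CHIR99021. The knock-out DMSO libraries were below all others, and the remaining groups overlapped. None of these differences passed the test that was run on it: with CHIR99021 the knock-out cells gave 0.33 ± 0.14 (edgeR's quasi-likelihood test, adjusted p = 0.177), and in DMSO knock-out against parental gave -0.22 ± 0.14 (adjusted p = 0.413 in the same test).

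Enpp1 (chr10:24637914-24712159, minus strand, GRCm38), the main source of extracellular pyrophosphate in many tissues and a hydrolase of cyclic GMP-AMP, was read 12 to 22 times per library. Its level was 0.515 and 0.622 CPM in parental cells with DMSO, 0.843 and 0.753 CPM with CHIR99021, 0.689 and 0.687 CPM in knock-out cells with DMSO and 0.675 and 0.463 CPM with CHIR99021. The parental CHIR99021 libraries were again the highest, by a small margin. The log2 fold changes with CHIR99021 were 0.48 ± 0.37 in parental cells and -0.26 ± 0.37 in knock-out cells (edgeR's quasi-likelihood test, adjusted p = 0.73). At this depth a change of up to 1.46-fold upward or to 0.476 of the DMSO level in knock-out cells lies within the 95% interval. In parental cells that interval runs from 0.795-fold to 2.46-fold. The knock-out response minus the parental one was -0.75 ± 0.52, with a 95% interval of -1.9 to 0.4.

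The ENTPD genes showed no difference that passed the test. Entpd5 (chr12:84373857-84409029, minus strand, GRCm38), which encodes an enzyme that hydrolyses UDP during glycoprotein folding, was the most abundant of the 3 per kb. Its level was 9.19 and 9.79 CPM in parental cells with DMSO, 11.5 and 10.7 CPM with CHIR99021, 9.79 and 9.61 CPM in knock-out cells with DMSO and 10.5 and 10.2 CPM with CHIR99021. Both lines were higher with CHIR99021 without overlap, by a log2 fold change of 0.22 ± 0.09 in parental cells and 0.10 ± 0.09 in knock-out cells, and neither was called (edgeR's quasi-likelihood test, adjusted p = 0.553 in knock-out cells). The 2 DMSO groups differed by 0.03 ± 0.09 (adjusted p = 0.892 in the same test).

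Entpd2 (chr2:25395874-25401321, plus strand, GRCm38), whose product takes ATP mainly to ADP, was read 19 to 37 times per library. Its level was 0.944 and 0.954 CPM in parental cells with DMSO, 0.766 and 1.09 CPM with CHIR99021, 0.834 and 0.763 CPM in knock-out cells with DMSO and 1.31 and 0.734 CPM with CHIR99021. The highest and the lowest of the 8 values were the 2 knock-out CHIR99021 libraries, so the spread within that group covered all the others. Its CHIR99021 log2 fold change was -0.04 ± 0.36 in parental cells and 0.36 ± 0.35 in knock-out cells (edgeR's quasi-likelihood test, adjusted p = 0.591). Entpd2 overlaps Npdc1 on the same strand, so reads in the shared stretch could have been divided between them in the counting.

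Entpd1 (chr19:40612366-40741602, plus strand, GRCm38) encodes CD39, which together with CD73 takes ATP to adenosine on lymphocytes and endothelium. It was read 5 and 2 times in parental cells with DMSO, 7 and 5 times with CHIR99021, 9 and 10 times in knock-out cells with DMSO and 13 and 12 times with CHIR99021. All 4 knock-out libraries were above all 4 parental ones. The gene passed the filter only through the knock-out CHIR99021 libraries, its highest, so the filter favoured an excess in the knock-out line. In DMSO, knock-out against parental gave a log2 fold change of 1.23 ± 0.62, which did not pass the test (edgeR's quasi-likelihood test, adjusted p = 0.286), and the ratio of summed counts, scaled by library size, was 2.39 with an exact 95% interval of 0.963 to 6.73 for counting error only. In CHIR99021 the difference was 0.94 ± 0.54. The processed pseudogenes Gm16027 and Gm8783 lie within Entpd1 on the same strand.

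Across the whole table, CHIR99021 in parental cells called 19.4% of the 17739 tested genes at an adjusted p under 0.05, 9.1% higher and 10.3% lower. Of the 9 tested ecto-nucleotidase genes 4 were called, Nt5e and Alpl higher and Enpp3 and Enpp4 lower, and the median log2 fold change of the 9 was 0.22 against 0.004 over all genes. Nothing is read from that count, since the genes were chosen with this contrast in view. In knock-out cells CHIR99021 called 7.06% of all genes, 2.88% higher and 4.18% lower, and 1 of the 9, Enpp3. The median of the 9 there was 0.1, against -0.003 over all genes. Knock-out against parental cells in DMSO called 6.75% of all genes, 3.13% higher and 3.62% lower, and 1 of the 9, Enpp3, higher. In CHIR99021 it called 23.7% of all genes, 11.2% higher and 12.5% lower, and 3 of the 9: Enpp3 higher, and Nt5e and Alpl lower. The difference between the 2 CHIR99021 responses called 6.13% of all genes, 3.22% upward and 2.91% downward, and 3 of the 9, again Enpp3 upward and Nt5e and Alpl downward. These comparisons share libraries and do not support each other.

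**Figure D3:**
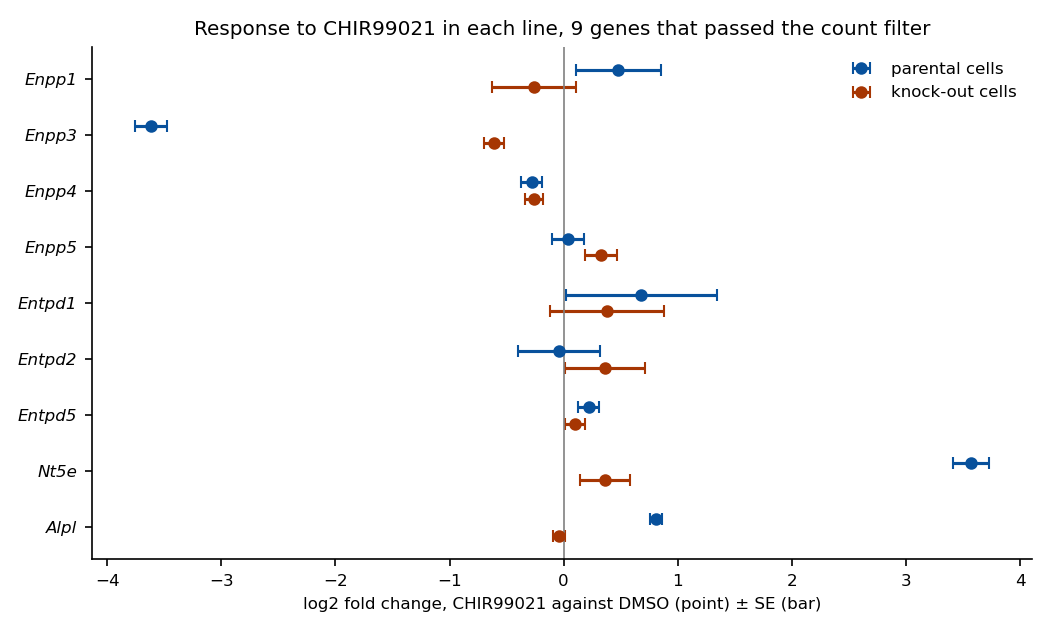
Log2 fold change by CHIR99021 against DMSO (points) with its SE (bars) for the 9 tested genes, in parental and in knock-out cells. The 2 lines lie far apart for Enpp3 (-3.62 and -0.61) and Nt5e (3.57 and 0.36), apart for Alpl (0.81 and -0.04), and nearly on each other for Enpp4 (-0.28 and -0.26).

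Other cell type markers moved with the parental response. With CHIR99021 the summed level of 7 early mesoderm markers went from 5.35 to 6.05 CPM in the parental DMSO libraries to 44.7 to 46.7 CPM, through Eomes and T, while Msgn1 was at 0 in all 8 libraries. In knock-out cells the same sum was 6.75 to 7.54 CPM with DMSO and 5.37 to 6.29 CPM with CHIR99021. Of the 5 tested early mesoderm markers only Eomes and T were called in parental cells. Mixl1 (log2 fold change 0.20 ± 0.28), Tbx6 (0.42 ± 0.43) and Mesp2 (-0.19 ± 0.24) were not. Mesp1, not tested, averaged 0.0207 CPM there with DMSO and 0.0401 CPM with CHIR99021. The 8 fibroblast or mesenchyme markers summed to 9.4 to 11.1 CPM in parental cells with DMSO and 20.4 to 22.0 CPM with CHIR99021, and to 13.3 to 14.8 and 15.7 to 17.2 CPM in knock-out cells. Pdgfrb and Thy1 rose among them in parental cells, and Dcn, Lum and Postn were at 0 in all 8 libraries. Of the 9 embryonic stem cell markers 7 fell in parental cells. The sum of the 9 went there from 6011 to 6025 CPM to 5390 to 5529 CPM. In knock-out cells, where 2 of them fell, it was 5612 to 5815 CPM with DMSO and 5352 to 5390 CPM with CHIR99021. The largest parental falls were those of Utf1 (log2 fold change -0.87 ± 0.08) and Fgf4 (-0.82 ± 0.04), while Esrrb (-0.01 ± 0.04) and Dppa5a (0.12 ± 0.04) were not called. All 5 neural markers fell in parental cells, with sums of 103 to 105 CPM and 49.4 to 50.3 CPM in parental cells, and of 101 to 109 and 83.1 to 85.5 CPM in knock-out cells, where 3 of them fell. The 6 primitive endoderm markers summed to 21.4 to 22.3 and 11.3 to 13.1 CPM in parental cells and to 28.8 to 29.5 and 26.1 to 28.1 CPM in knock-out cells. Of the 4 tested, 1 was called in parental cells, Sox7, which went from 14.1 to 4.74 CPM. There Gata4 averaged 5.01 and 4.73 CPM, Dab2 2.05 and 1.72 CPM, and Gata6 0.467 and 0.759 CPM. In knock-out cells with DMSO and CHIR99021 Gata4 averaged 10.6 and 11.2 CPM, Dab2 5.24 and 4.93 CPM, Gata6 0.909 and 1.31 CPM, and Sox7 12.1 and 9.18 CPM. Between the lines in DMSO, Gata4 (1.08 ± 0.14) and Dab2 (1.35 ± 0.16) were called higher in knock-out cells, and Gata6 and Sox7 were not called. The 7 trophoblast markers summed to between 3.73 and 6.05 CPM in every library, with Tpbpa at 0 throughout. Among them Cdx2 rose in parental cells, from 0.106 to 1.57 CPM (log2 fold change 3.83 ± 0.71), against 0.237 and 0.166 CPM in knock-out cells. The part of other cell types in the levels of Nt5e, Enpp3 and Alpl was not tested, and in bulk RNA fewer cells of a type and less RNA per cell cannot be told apart.

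The members lie on 8 chromosomes, and 4 of them are neighbours in pairs. Enpp1 and Enpp3 are adjacent on chromosome 10 on the same strand, 60.2 kb apart with no other gene starting between them. Their parental responses to CHIR99021 were unlike, 0.48 ± 0.37 and -3.62 ± 0.14. Enpp4 and Enpp5 face each other on chromosome 17 across 9.74 kb and gave -0.28 ± 0.09 and 0.04 ± 0.14. The nearest tested gene to Nt5e, Snx14, starts from the other strand and ends 4.66 kb away, and its log2 fold change in parental cells was -0.02 ± 0.06. On the far side of Enpp3, Med23 at 27.2 kb gave -0.10 ± 0.05. Beside Alpl, Rap1gap at 11.9 kb gave -0.17 ± 0.07 and Ece1 at 65.9 kb gave -0.15 ± 0.05. None of these 4 neighbours was called in parental cells with CHIR99021 (edgeR's quasi-likelihood test, adjusted p from 0.0639 for Ece1 to 0.854 for Snx14). Nearest to Enpp1 on its other side, Ccn2 at 39.2 kb, which encodes a secreted matrix-associated growth factor, fell by 0.49 ± 0.09 in parental and by 0.37 ± 0.08 in knock-out cells.

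The genes whose levels ran most like those of each member over the 8 libraries were sought by Pearson's correlation of log2(CPM + 1) among 10184 genes, as a description in which 4 groups set most of the spread. For Nt5e they were Dnah8 (r = 0.9985), an axonemal dynein heavy chain, Nkx1-2 (0.9963), a homeobox gene, Slc16a9 (0.9951), of the monocarboxylate transporter family, and Ror2 (0.9950), a Wnt receptor. Dnah8 averaged 27.9 CPM in parental cells with DMSO, 183 with CHIR99021, and 26.0 and 28.3 CPM in the knock-out groups. All 4 genes shared the single high group. For Enpp3 they were Slc39a14 (0.9994), a zinc transporter, St6gal1 (0.9971), a sialyltransferase, Rest (0.9969), a repressor of neuronal genes, and Dppa2 (0.9964), a gene of pluripotent cells. Slc39a14 averaged 204 and 113 CPM in parental cells with DMSO and CHIR99021 and 218 and 194 CPM in knock-out cells, so that its parental log2 fold change was -0.85 ± 0.04 against -3.62 for Enpp3. For Alpl they were C77080 (0.9926), Zyx (0.9914), which encodes the focal adhesion protein zyxin, Sh3bp1 (0.9889) and Bhmt2 (0.9885). The closest to the flatter genes were Fmnl3 for Enpp4 (0.9804), Mbnl1 for Enpp5 (0.9365) and Rpsa for Entpd5 (0.9946).

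The surroundings of these enzymes in purine metabolism were read from 10 lists of 96 further genes, of which 92 are in the table and 72 were tested. With CHIR99021 in parental cells 17 of the 72 were called, 10 higher and 7 lower, or 23.6% beside 19.4% of all genes, with a median log2 fold change of 0.04. In knock-out cells 6 were called, all lower, or 8.33% beside 7.06% of all genes, with a median of -0.04. DESeq2 made 12 of the 17 calls in parental cells, but not those of Acp2, Phospho1, Plpp3, Cd38 and the adenylate kinase gene Ak1, and 5 of the 6 in knock-out cells, but not that of Pnp. Ak1 is named here for that loss alone, after its values were seen. No listed gene was called higher there by edgeR's quasi-likelihood test, DESeq2 or limma-voom, and 5 had an unadjusted p under 0.05 in that direction by the first. DESeq2 gave some genes no adjusted p there, among them all 11 tested P2X and P2Y receptor genes, and could not call these. Knock-out against parental cells called 6 in DMSO (3 higher, 3 lower, 8.33% beside 6.75% of all genes), and DESeq2 made 3 of these calls. In CHIR99021 the comparison called 24 (9 higher, 15 lower, 33.3% beside 23.7% of all genes), and DESeq2 made 15 of them.

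**Figure D4:**
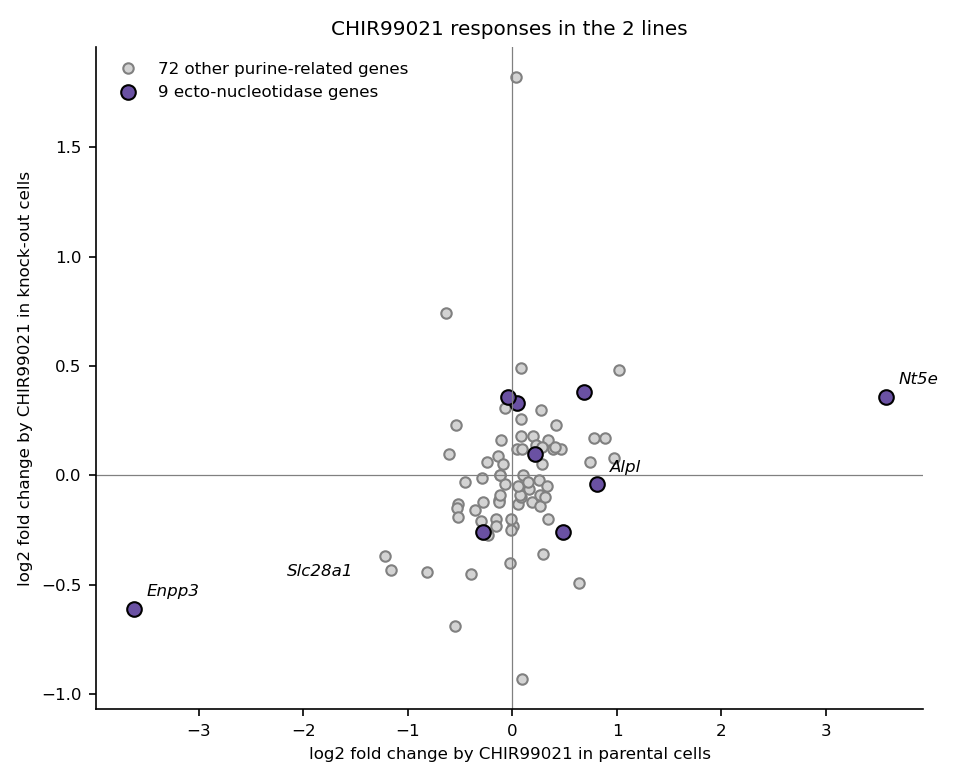
Log2 fold change by CHIR99021 in knock-out cells (vertical axis) against that in parental cells (horizontal axis) for the 9 tested ecto-nucleotidase genes and 72 other purine-related genes; each point is 1 gene, and the axes have different scales. Enpp3 (-3.62, -0.61) and Nt5e (3.57, 0.36) lie outside the range of the others along the horizontal axis, and Slc28a1 (-1.16, -0.43) is low on both.

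The 4 adenosine receptor genes, through which the adenosine made by CD73 acts, had group means of at most 1.02 CPM, reached by Adora2b in knock-out cells with DMSO. None of the 3 tested was called with CHIR99021 in either line by edgeR or limma-voom, nor had an unadjusted p under 0.05 by edgeR. DESeq2 gave an adjusted p only to Adora2b in parental cells, which it did not call, and could not call the rest. Of 14 P2X and P2Y receptor genes, which sense ATP, ADP and UTP, 11 were tested. None was called with CHIR99021 in either line by edgeR or limma-voom, with 1 at an unadjusted p under 0.05 in each line by edgeR. DESeq2 gave none of the 11 an adjusted p in knock-out cells, so it could not call them there. In parental cells it gave none to P2rx1, P2rx6, P2ry4 and P2ry6 and called none of the others. Over all genes edgeR called 19.4% in parental and 7.06% in knock-out cells, so lists this short could hold few calls. Of 9 genes for lysophosphatidic acid receptors and lipid phosphate phosphatases, which handle the lipid that autotaxin makes, Lpar6 (0.78 ± 0.14) and Plpp3 (0.25 on the log2 scale) rose in parental cells. That was 22.2% beside 19.4% of all genes. The call of Plpp3 was made by edgeR alone, and neither DESeq2 nor limma-voom made it.

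Of 9 tested genes for nucleoside transport and nucleotide release, 1 rose and 2 fell in parental cells (33.3% beside 19.4% of all genes). In knock-out cells 2 fell (22.2% beside 7.06% of all genes). Slc28a1, a sodium-coupled transporter that takes up nucleosides, fell in both lines, from 19.5 to 8.71 CPM in parental cells (log2 fold change -1.16 ± 0.09) and from 19.2 to 14.2 CPM in knock-out cells (-0.43 ± 0.09; edgeR's quasi-likelihood test, adjusted p = 0.0148). Slc29a1, the equilibrative nucleoside transporter, fell alike in both, by 0.16 ± 0.04 and by 0.20 ± 0.04 (adjusted p = 0.014 in knock-out cells by the same test). Slc17a9, which loads ATP into vesicles, rose by 0.41 ± 0.09 in parental cells and was lower in knock-out than in parental cells in DMSO, at -0.55 ± 0.10.

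Of 16 tested salvage and breakdown enzymes 2 rose and 3 fell in parental cells, or 31.2% beside 19.4% of all genes. Nothing is read from a count in so short a list. Pnp, which splits inosine and guanosine, fell by 0.53 ± 0.04, and Ada, which deaminates adenosine, by 0.52 ± 0.10. Of the adenylate kinases Ak3 fell by 0.29 and Ak4 rose by 0.34 ± 0.05. In knock-out cells Pnp fell by 0.15 ± 0.04 (edgeR's quasi-likelihood test, adjusted p = 0.0484) and Aprt, which salvages adenine, by 0.25 ± 0.05 (adjusted p = 0.0107 in the same test).

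Among enzymes of related activity, the parental responses of intracellular nucleotidases and phosphatases reached 0.89 on the log2 scale, against 0.81 for Alpl. Nt5dc3 rose in parental cells from 18.4 to 34.1 CPM (0.89 ± 0.06) and Nt5dc2 fell by 0.30 ± 0.05, the latter also in knock-out cells by 0.21 ± 0.05 (edgeR's quasi-likelihood test, adjusted p = 0.0222). Nt5c2, the cytosolic nucleotidase that prefers IMP, stood at 35.6 CPM in parental and 49.4 CPM in knock-out cells with DMSO, a log2 fold change of 0.47 ± 0.05. Phospho1, a phosphatase of skeletal mineralisation like Alpl, rose by 0.74 ± 0.23 in parental cells, and the lysosomal phosphatase Acp2 by 0.28 ± 0.07. The phosphate transporter Slc20a1 fell by 0.52 ± 0.04 in parental and by 0.19 ± 0.04 in knock-out cells (edgeR's quasi-likelihood test, adjusted p = 0.0209), and Ppa1, a soluble pyrophosphatase, rose by 0.26 ± 0.04 in parental cells. Cd38, a surface enzyme that uses NAD, rose by 0.33 ± 0.09 there. Of the other listed ENPP and ENTPD genes 4 were tested, and none was called with CHIR99021 in either line by edgeR or limma-voom. In parental cells 1 had an unadjusted p under 0.05 by edgeR. DESeq2 called none either, but gave Entpd3 no adjusted p and could not call it. The shares over all genes by edgeR were 19.4% in parental and 7.06% in knock-out cells. Between the lines in CHIR99021, Entpd6 was called lower in knock-out cells (log2 fold change -0.18 ± 0.05), a call that DESeq2 did not make. That was 25% of the 4 beside 23.7% of all genes.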

How the data were processed

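The authors deposited 1 table of estimated counts per gene, made with kallisto against GRCm38.p4 per the submitters' processing notes; versions and the strand setting are not given in the sources used here. Counts were rounded, and edgeR 4.0.16 (R 4.3.3) kept 17739 genes with filterByExpr (at least 10 counts, 15 in total), scaled them by TMM and fitted 4 group means to all 8 libraries. Genes were called by the quasi-likelihood F test, 2-sided, at a Benjamini-Hochberg adjusted p under 0.05 over all genes; the SE is the fold change divided by the square root of F. CPM uses TMM library sizes. Alternatives were DESeq2 1.42.0, limma-voom 3.58.1, other scalings and filters, the compared groups alone, other thresholds, a replicate block, and each library left out. Positions and transcript lengths came from GENCODE M21, promoters from RefSeq. The members and lists were chosen with earlier results of these data known. All members are named. From each list up to 4 called genes with the smallest adjusted p are named, besides the nearest tested neighbours and the 4 most correlated genes with a group mean of at least 5 CPM. The neural list was drawn up with 1 further marker, which is not reported here.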

Additional observations from a re-analysis of the deposited data

Results flagged for a closer look

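The response to CHIR99021 differed between the knock-out and the parental line, by the interaction term of the fit, for 3 of the 9 tested ecto-nucleotidase genes; values are the knock-out response minus the parental one on the log2 scale. For Enpp3 it was 3.02 ± 0.18 (SE), for Nt5e -3.22 ± 0.28 and for Alpl -0.86 ± 0.07. These 3 values hold the contrast in view when the genes were chosen and are given as a description.

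Of the 72 other purine-related genes 6 differed in the same way, or 8.33% beside 6.13% of all genes tested. The nucleoside transporter gene Slc28a1 gave 0.73 ± 0.13, with a larger fall in parental cells. Pnp gave 0.38 ± 0.06 and the phosphate transporter gene Slc20a1 gave 0.33 ± 0.06, both also falling further in parental cells. Nt5dc3 gave -0.72 ± 0.09. Ak4 gave -0.53 ± 0.08 and Ppa1 gave -0.35 ± 0.06.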

How the results depend on the processing

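Of 649 log2 fold changes of the tested genes recomputed under an alternative setting, 612 kept their direction and their side of the threshold, 23 kept the direction and lost the call, and 14 changed sign. The 23 were Enpp4 in parental cells with CHIR99021 (11 of 15 settings) and Enpp3 between the lines in DMSO (12 of 15), each losing its call in all 8 fits without 1 library. Otherwise Nt5e, Enpp3 and Alpl kept their calls in these 15 settings, which do not include the other thresholds. Of the ecto-nucleotidase genes, 0 were called between the lines in DMSO with DESeq2, with no filter beyond 1 read, with the compared groups alone, with the replicate block, at an adjusted p under 0.01, with a fold over 2, and in each fit without 1 library (0 to 0). With a fold over 2 the calls with CHIR99021 were 2 in parental and 0 in knock-out cells, and 2 each between the lines in CHIR99021 and for the interaction. Alpl lost its 3 calls, Enpp4 that in parental cells and Enpp3 that in knock-out cells.

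All 14 sign changes were in values that passed in neither setting, each without 1 library, and the causes were not tested. Over those 8 fits Entpd5 between the lines in DMSO ran from -0.0129 to 0.0782, Enpp5 between them in CHIR99021 from -0.0291 to 0.169, Alpl in knock-out cells with CHIR99021 from -0.0981 to 0.0104 (0.00929 without another library), the interaction of Enpp4 from -0.0434 to 0.076 (also -0.0406, -0.0152 and -0.0212), and that of Entpd1 from -1.09 to 0.228. Entpd2 ran from -0.307 to 0.198 in parental and from -0.123 to 0.716 in knock-out cells with CHIR99021, from -0.331 to 0.511 between the lines in CHIR99021 (also -0.0775), and from -0.0836 to 0.761 in the interaction.

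Over all genes, 3441 calls in parental cells with CHIR99021 became 2205 with DESeq2, 1897 at 0.01, 558 with a fold over 2 and 2057 to 3507 without 1 library. In knock-out cells 1252 became 2167 without a filter, 342, 50 and 307 to 1237. Between the lines 1198 in DMSO became 795 with DESeq2, 2064 without a filter, 411, 79 and 357 to 1047, and 4200 in CHIR99021 became 2709 with DESeq2, 2403, 592 and 2509 to 4353. The interaction's 1087 became 1990 without a filter, 509, 240 and 605 to 1143.

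No strong effect shared by same-numbered libraries was seen: the correlation of deviations between same-numbered libraries of 2 groups ran from -0.0561 to 0.104. Such values cannot tell whether these libraries were prepared together. With the replicate block, the Enpp3 call between the lines in DMSO was lost (log2 fold change 0.363), and the other 4 counts of called ecto-nucleotidase genes were as before. Another scaling moved no group mean of at least 1 CPM by over 1.96%. The interaction was not refitted with the compared groups alone, since these are all 4 groups. Depth limits Enpp1, Enpp2, Entpd1 and Entpd2, whose highest library levels were 0.843, 0.116, 0.463 and 1.31 CPM.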

Other observations

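Hprt, which encodes the salvage enzyme for hypoxanthine and guanine and is usually expressed in every cell, had group means of 0.889 and 0.749 CPM in parental cells with DMSO and CHIR99021 and of 1.14 and 0.946 CPM in knock-out cells. Aprt, the corresponding enzyme for adenine, had 239.9, 238, 250.2 and 211 CPM in the same groups. Hprt was singled out after its values were seen. It was low in both lines and with either treatment.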
